A study of Mus musculus with 3 samples.

Results

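NF-kB is a dimeric transcription factor built from 5 related proteins, and the report describes the genes that encode them in the chromatin RNA of mouse macrophages: Nfkb1, Nfkb2, Rel, Relb and Rela. The members were chosen by symbol, and all 5 were found among the 55536 gene rows of the deposited tables. Bone marrow-derived macrophages (BMDM) of C57BL/6J mice received 100 ng/ml lipid A for 12 h, then a washout of 12 h, then the same dose again for 30 min, per the labels. RNA was taken from the chromatin fraction, where RNA that is still being made is concentrated, and ribosomal RNA was removed before sequencing. The labels describe 1 group of 3 biological replicates from separate biosamples that share a donor identifier. Age and sex were not recorded, and no genotype other than the strain is given. Replicate 1 was made from 1 µg of RNA, replicate 2 from 250 ng and replicate 3 from 500 ng, so the effect of input cannot be told apart from that of the replicate. No untreated or singly treated cells were analysed here, so the levels do not show what lipid A did to these genes.

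Rela, Relb and Rel carry a transactivation domain, whereas Nfkb1 and Nfkb2 encode long precursors, p105 and p100, whose processing gives the DNA-binding subunits p50 and p52. In resting cells IkB proteins hold the dimers in the cytoplasm. TLR4, the receptor of lipid A, activates the IKK complex, which marks the IkB proteins for destruction and frees mainly dimers of Rela or Rel with p50. A slower route through NIK and processing of p100 frees dimers of Relb with p52. Several genes of the pathway, among them Nfkb1, Nfkb2, Rel and Relb, are themselves known targets of NF-kB.

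Total expected counts on gene rows were 12401783, 18317179 and 18164629 in replicates 1, 2 and 3. All 12 macrophage markers were called above 1 TPM (a level per transcript length, scaled to the same sum in each library) by the limma test described with the levels. That test called 51.1% of all genes and 61.8% of protein-coding genes tested. The calls were 1 of 6 for dendritic cell markers, 0 of 8 for lymphoid markers, 0 of 8 for granulocyte and mast cell markers and 0 of 7 for stromal and endothelial markers. The dendritic marker called was Batf3, at 3.24, 7.19 and 2.5 TPM. Summed TPM over the 8 lymphoid markers was 0.55 to 0.56 per library. It was 0.15 to 1.72 for granulocyte and mast cell markers, 4.92 to 9.01 for dendritic markers and 1.19 to 3.64 for stromal and endothelial markers. These calls and sums are from the gene table. In the second transcript table, which was estimated from the same reads, the calls were 3 of 6 for dendritic, 2 of 8 for lymphoid, 1 of 8 for granulocyte and mast cell and 2 of 7 for stromal and endothelial markers, and 12 of 12 for macrophage markers. The test called 57.5% of all genes and 65.5% of protein-coding genes in that table. The highest lymphoid marker there, Cd3d, had a mean of 15.4 TPM, and the stromal and endothelial marker Pecam1 had 9.93 TPM. Both were named after their values were seen, and the part of other cells in the subunit values was not tested.

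The annotated retained-intron transcripts take up a large part of the values of Nfkb1 and Relb, so exon ends at which some of them read on into an intron are shown first. Each line holds the last 20 bases of an exon of the coding transcript, in capitals, and the first 30 bases of the following intron, in lower case, all of them part of the named retained-intron transcript. The sequences are from the release M21 transcripts, on the strand of the gene.
Nfkb1-208, after exon 8 of 25 of Nfkb1-201 (chr3:135618774-135618823, minus strand): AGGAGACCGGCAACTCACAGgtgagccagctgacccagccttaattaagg
Nfkb1-204, after exon 12 of 25 of Nfkb1-201 (chr3:135612384-135612433, minus strand): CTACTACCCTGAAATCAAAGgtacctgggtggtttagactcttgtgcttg
Nfkb1-210, after exon 16 of 25 of Nfkb1-201 (chr3:135603680-135603729, minus strand): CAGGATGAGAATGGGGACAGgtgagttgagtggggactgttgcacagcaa
Relb-208, after exon 4 of 11 of Relb-201 (chr7:19617732-19617781, minus strand): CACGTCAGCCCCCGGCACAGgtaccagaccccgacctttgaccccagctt
Nfkb2-207, after exon 3 of 23 of Nfkb2-201 (chr19:46306345-46306394, plus strand): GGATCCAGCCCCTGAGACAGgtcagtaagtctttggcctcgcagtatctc
Nfkb2-207, after exon 13 of 23 of Nfkb2-201 (chr19:46309055-46309104, plus strand): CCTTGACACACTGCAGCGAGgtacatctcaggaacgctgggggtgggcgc
At the exon end shown, Relb-208 keeps only 58 bases of the intron, apart from a block of 966 bases further on that Relb-206 also holds. Relb-206, which held more Relb counts than Relb-208 in the first transcript table, has no such exon end, since its intron sequence begins within an intron and runs into the next exon. These 6 places were picked because an annotated coding transcript ends its exon where the capitals end. In every one the intron begins with gt, the usual first bases of an intron, which that choice makes likely.

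Promoter windows are shown as context, and whether they bear on any value given here was not tested. RefSeq windows from 250 bases before to 50 bases after the annotated start (GRCm38.p6) were matched for 3 of the 5 genes, namely Rel, Rela and Nfkb2. They were searched on both strands for a 10-base kappa-B motif, which reads GGG, a purine, 2 bases of any kind, 2 pyrimidines and CC, and matches are in capitals.
Rel (chr11:23770920-23771219, minus strand): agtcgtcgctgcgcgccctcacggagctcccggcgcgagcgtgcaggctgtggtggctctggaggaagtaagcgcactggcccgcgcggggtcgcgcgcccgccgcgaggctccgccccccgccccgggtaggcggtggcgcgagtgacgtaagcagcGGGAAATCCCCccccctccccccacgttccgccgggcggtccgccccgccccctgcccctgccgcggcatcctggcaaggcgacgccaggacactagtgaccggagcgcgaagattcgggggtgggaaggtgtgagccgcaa
Nfkb2, at the start of the coding transcript Nfkb2-202 (chr19:46305445-46305744, plus strand): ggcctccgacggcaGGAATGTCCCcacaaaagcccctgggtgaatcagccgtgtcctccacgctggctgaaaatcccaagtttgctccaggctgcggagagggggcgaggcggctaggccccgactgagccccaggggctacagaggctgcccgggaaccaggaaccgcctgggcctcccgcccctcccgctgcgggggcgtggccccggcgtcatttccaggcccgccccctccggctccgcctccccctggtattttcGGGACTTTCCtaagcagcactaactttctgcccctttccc
Rela (chr19:5637291-5637590, plus strand): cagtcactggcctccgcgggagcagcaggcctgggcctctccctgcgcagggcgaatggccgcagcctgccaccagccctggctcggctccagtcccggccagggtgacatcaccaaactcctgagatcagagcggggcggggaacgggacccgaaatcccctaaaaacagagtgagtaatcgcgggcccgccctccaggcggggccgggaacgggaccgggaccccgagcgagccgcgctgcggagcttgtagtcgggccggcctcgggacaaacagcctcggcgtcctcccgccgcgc
The Rel window held 2 overlapping matches, the first of them at position -92 from the start. The Nfkb2 window shown held 2 matches, GGAATGTCCC, which begins at position -236 from the start and reads as the motif on the opposite strand, and GGGACTTTCC, which lies just after the start. The other Nfkb2 windows held 3 and 1 matches, and none of the 3 windows covers the start of Nfkb2-206. Among the 3 matches, those at positions -39 and -38 overlap. The 1 match is the same GGGACTTTCC site as in the window shown, since these windows overlap. The Rela window held 0. Of all 32851 windows of this length in the table, 8.46% held at least 1 match. A match describes letters only, and no binding was measured.

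All 5 subunit genes were present in the chromatin RNA of every library. By mean TPM of the gene table, over all transcripts of each gene, the order was Nfkb1, Nfkb2, Rel, Relb and Rela. In bulk RNA, fewer cells that express a gene and less RNA per cell cannot be told apart. Nfkb1, the gene of p105 and p50 (chr3:135584655-135691547, minus strand, mm10), was at 93.96, 77.02 and 93.83 TPM in replicates 1, 2 and 3. Replicates 1 and 3 lay together and replicate 2 below them, and the mean was 88.3 ± 9.74 TPM (SD, n = 3). Nfkb2, the gene of p100 and p52 (chr19:46304320-46312385, plus strand), was at 64.06, 45.84 and 77.76 TPM, with a mean of 62.6 ± 16.0 TPM (SD, n = 3). Replicate 3 was highest and replicate 2 lowest. Rel, which encodes c-Rel (chr11:23736847-23770970, minus strand), was at 49.37, 24.82 and 65.25 TPM, with a mean of 46.5 ± 20.4 TPM (SD, n = 3). Its highest library was 2.63 times its lowest, the widest range of the 5 genes, and the lowest was again replicate 2. Relb, the transactivating partner of p52 (chr7:19606217-19629438, minus strand), was at 46.92, 28.13 and 47.56 TPM, with a mean of 40.9 ± 11.0 TPM (SD, n = 3). Rela, which encodes p65 (chr19:5637483-5648130, plus strand), was at 33.81, 21.54 and 34.51 TPM, with a mean of 30.0 ± 7.29 TPM (SD, n = 3). For both genes replicates 1 and 3 were close together and replicate 2 was well below.

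Each level was set against a floor of 1 TPM with limma, one-sided, on the log2(TPM + 0.1) scale, adjusted by the Benjamini-Hochberg method over 24180 genes. All 5 genes passed the threshold of 0.05, against 51.1% of all genes tested and 61.8% of the 15120 protein-coding genes tested. On this scale Nfkb1 was 6.32 ± 0.15 (SE) above the floor and Rela, the lowest, 4.74 ± 0.21 (SE), with adjusted p from limma of 3.94e-05 and 7.13e-05. The largest adjusted p from limma among the 5 was 0.000169, for Rel. Each gene lay above 1 TPM in 3 of 3 libraries. The median of the protein-coding genes tested was 4.17 TPM, and the subunit genes lay between the 77.6th and the 95.3rd percentile of protein-coding genes in each library. The half-width of the interval deposited beside each level, whose confidence level is not given in the sources used here, was 2.39% of the posterior mean at its narrowest, for Rel in replicate 3. At its widest it was 16.8%, for Rela in replicate 2. The expected counts behind these 2 values were 7013 and 681.

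**Figure D1:**
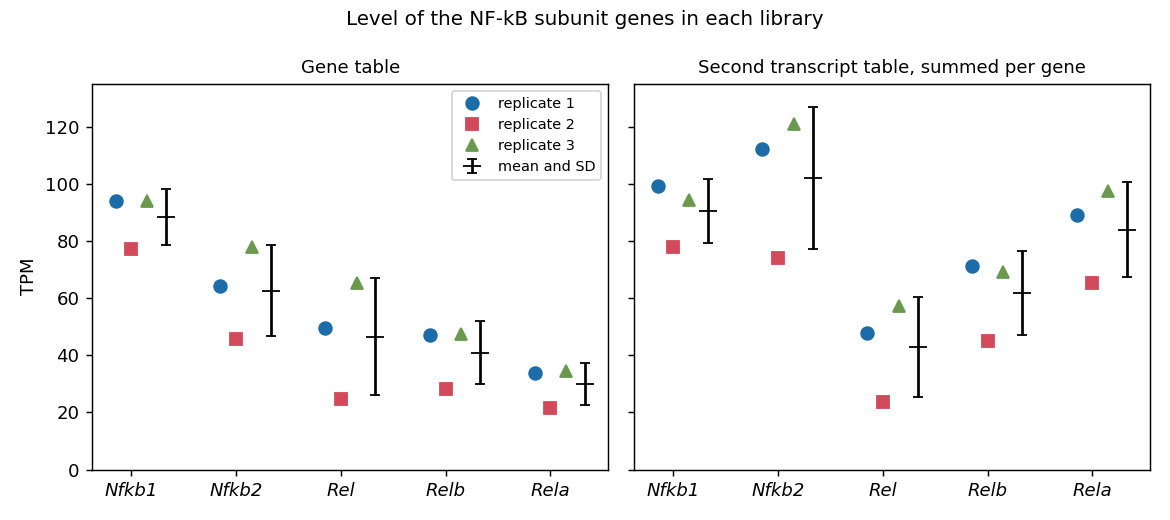
TPM (vertical axis, linear) of the 5 subunit genes in each of the 3 libraries (symbols), with mean and SD (black), from the gene table (left) and from the second transcript table summed per gene (right). Replicate 2 is the lowest library for every gene in both panels, and Rela has a mean of 30.0 TPM on the left and 83.9 TPM on the right.

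The plot of levels by library shows that the order of the 5 genes depended on the table. In the second transcript table mean TPM was 102 ± 24.8 for Nfkb2, 90.4 ± 11.3 for Nfkb1, 83.9 ± 16.6 for Rela, 61.7 ± 14.6 for Relb and 42.9 ± 17.4 for Rel (SD, n = 3 each). Rela was the lowest of the 5 in the gene table and the third in this one, 2.80 times as high in TPM and 2.34 times as high in counts. Rel, which has a single annotated transcript, was 0.924 times as high in TPM. The median ratio of counts over 11286 protein-coding genes was 1.71, with 1.25 and 5.51 at the 5th and 95th percentiles. The ratio of 2.34 for Rela was above that of 78.1% of these genes. Relb had the same ratio of counts, 2.34, and those of Nfkb2, Nfkb1 and Rel were 2.11, 1.54 and 1.48.

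Pairs of subunit genes were compared per length and within each library, over 10 pairs. Nfkb1 exceeded Rela by 1.47, 1.83 and 1.44 on the log2 TPM scale in replicates 1, 2 and 3, a mean of 1.58 ± 0.22 (SD, n = 3) or 2.99-fold. Nfkb2 exceeded Rela by 1.06 ± 0.13, and Relb exceeded Rela by 0.44 ± 0.05 (SD, n = 3 each). The difference of Relb from Rela was the smallest of these 3 and varied least between libraries. Rel and Relb, neighbours in the order, did not differ beyond their spread, with Rel minus Relb at 0.07, -0.18 and 0.46 and a mean of 0.12 ± 0.32 (SD, n = 3). The other 9 pairs had the same sign in 3 of 3 libraries, with an exact two-sided sign-flip p of 0.25, the smallest that 3 libraries allow, and 0.278 after adjustment over the 10 pairs. No pair could therefore pass a threshold of 0.05. In the second transcript table the differences of Nfkb1 from Nfkb2 and of Relb and Rel from Rela had the opposite sign, with means of -0.15, -0.45 and -1.04, and Rel minus Relb was -0.59. There Nfkb1 minus Rela was only 0.12 ± 0.15, positive in 2 of 3 libraries, and Nfkb2 minus Rela was 0.27 ± 0.08 (SD, n = 3 each). Nfkb1 minus Relb was 0.57 ± 0.19 and Nfkb2 minus Rel 1.31 ± 0.29 (SD, n = 3 each), against 1.14 and 0.50 in the gene table. The size of the lead of Nfkb1 and Nfkb2 over Rela thus depended on the table. These differences also take in all transcripts of a gene, including those annotated as retained intron. In the first transcript table the coding Nfkb1-201, Nfkb1-203 and Nfkb1-206 were at 0, 6.27 ± 2.0 and 8.66 ± 2.77 TPM. The coding Rela-201 was at 21.6 ± 4.75 TPM and the coding Rela-205 at 0.503 ± 0.451 TPM (SD, n = 3 each). This also depended on the table. In the second transcript table the 3 Nfkb1 transcripts were at 0.636 ± 0.12, 2.01 ± 1.06 and 14.8 ± 1.91 TPM. There Rela-201 was at 13.2 ± 2.16 TPM and Rela-205 at 10.8 ± 1.78 TPM (SD, n = 3 each). Pairs were not compared on coding transcripts alone.

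Nfkb1 and Relb owed most of their expected counts to transcripts annotated as retained intron, which keep intron sequence and are not annotated as coding. For Nfkb1 the class held 90.5%, 81.1% and 81.6% of the gene's expected counts in replicates 1, 2 and 3, a mean of 84.4% ± 5.30 (SD, n = 3). Replicate 1 stood above the other libraries, and the coding transcripts held only 9.32% there. For Relb the class held 71.8%, 65.0% and 66.1%, a mean of 67.7% ± 3.66 (SD, n = 3). Nfkb2 was at 11.7% ± 1.16 and Rela at 5.32% ± 1.38 (SD, n = 3 each), with 88.0% and 90.9% of their counts on coding transcripts. Rel has 1 annotated transcript, a coding one, so unspliced reads of Rel have no class of their own. Among 5158 protein-coding genes with a retained-intron transcript and 100 or more expected counts on average, the median share was 28.1%. The share of Nfkb1 was above that of 95.8% of these genes and the share of Relb above 86.8%, whereas those of Nfkb2 and Rela were above 26.3% and 13.9%. These shares are a description with no test, and they depend on which transcripts are annotated. Retained-intron transcripts also hold exon sequence, so a share of counts in this class is not a share of intronic reads.

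**Figure D2:**
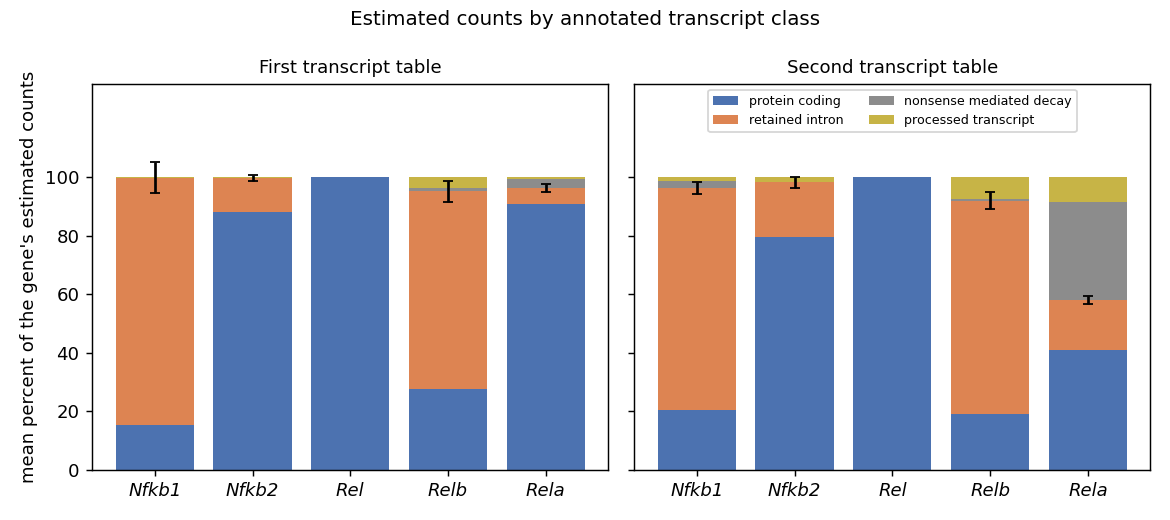
Mean percent of each gene's estimated counts (vertical axis) by annotated transcript class in the 2 transcript tables, with bars stacked from 0 and the SD of the retained-intron share over 3 libraries drawn at its upper edge. Retained-intron transcripts hold 84.4% of Nfkb1 and 67.7% of Relb in the first table, and the coding share of Rela is 90.9% in the first table and 40.9% in the second.

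The bars of transcript classes show where the tables part. In the second table the retained-intron share was 76.0% ± 2.07 for Nfkb1, 73.1% ± 2.81 for Relb, 18.7% ± 2.03 for Nfkb2 and 17.1% ± 1.52 for Rela (SD, n = 3 each). Both tables thus put most counts of Nfkb1 and Relb, and under 20% of those of Nfkb2 and Rela, in this class. For Rela the second table put 33.5% ± 2.68 of counts on transcripts annotated for nonsense-mediated decay, against 3.08% ± 0.811 in the first (SD, n = 3 each). The coding transcript Rela-201 had nearly the same counts in both, with 583, 716 and 876 in the second table and 647, 630 and 905 in the first. The excess of Rela counts in the second table therefore lay on its other transcripts. Over protein-coding genes the median ratio of counts between the tables was 1.71, so like counts meant a lower relative level of Rela-201. It was at 13.2 ± 2.16 TPM in the second table and 21.6 ± 4.75 TPM in the first (SD, n = 3 each). Its share of the gene's counts was 38.7% and 90.8%, in the same order.

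Within Nfkb1, which spans 106.9 kb, the counts of the retained-intron class came from separate stretches of the gene. Nfkb1-204 held 1313, 1401 and 1744 expected counts, a mean of 44.3% ± 2.11 of the gene (SD, n = 3). It begins at the gene's start and ends in the intron after exon 12, with a block of 1824 bases outside coding exons between 79.1 and 81.0 kb. Nfkb1-208 held 639, 641 and 748 counts. It is a single exon between 69.4 and 73.6 kb, and 96.0% of its bases lie outside coding exons. Nfkb1-210, a single exon between 87.7 and 89.7 kb with 92.9% of its bases outside coding exons, held 319, 338 and 327 counts. Nfkb1-202 held 313, 329 and 342 counts, although only 7.5% of its bases lie outside coding exons. Most of that transcript is thus shared with coding transcripts, and its reads need not be intronic. Of the bases of Nfkb1-204, 53.9% lie outside coding exons, so its reads need not all be intronic either. The full-length coding transcript Nfkb1-201 was listed at 0 counts in all 3 libraries of the first table and at 47.4, 54.7 and 59.3 in the second. It was named after its values were seen. Coding reads went to the shorter models Nfkb1-206, with 167, 417 and 447 counts, and Nfkb1-203, with 98.9, 208 and 260 counts. Both were lowest in replicate 1, the library with the fewest counts, and were lowest there as a share of the gene's counts too. The shares in replicates 1, 2 and 3 were 5.86%, 12.5% and 11.5% for Nfkb1-206. For Nfkb1-203 they were 3.46%, 6.23% and 6.71%. The cause was not tested.

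**Figure D3:**
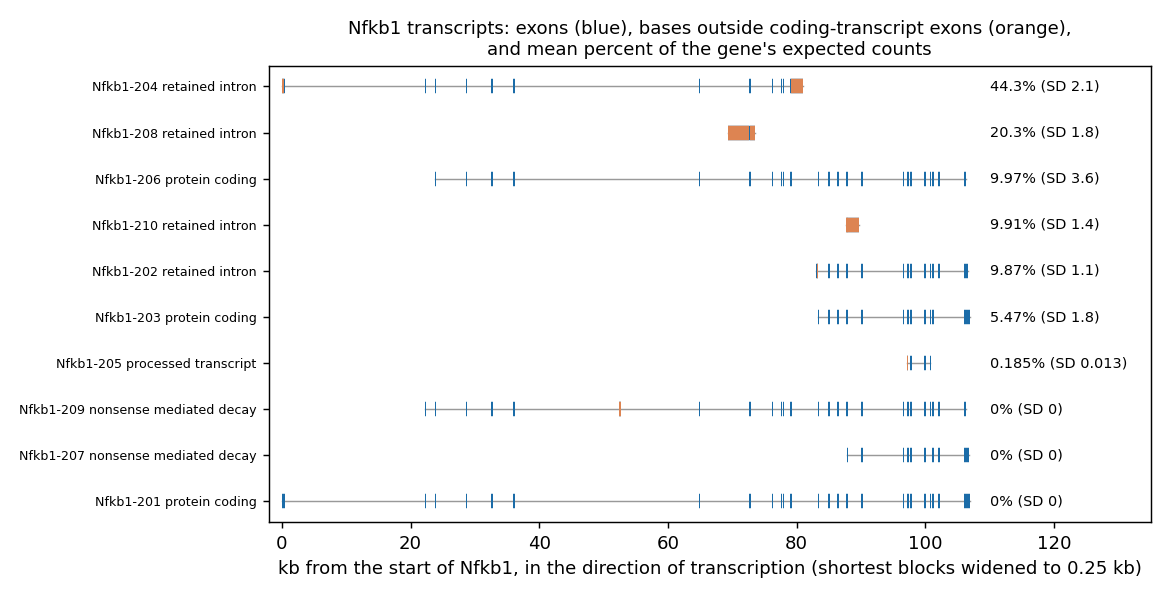
The 10 annotated Nfkb1 transcripts by distance from the gene's start (horizontal axis, kb), with exons in blue and bases outside the exons of coding transcripts in orange, and at the right the mean and SD over 3 libraries of the percent of the gene's expected counts in the first transcript table. The 3 transcripts with large orange blocks, Nfkb1-204, Nfkb1-208 and Nfkb1-210, hold 44.3%, 20.3% and 9.91%.

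In the map of Nfkb1 transcripts the large orange blocks lie between 69.4 and 89.7 kb, in introns that border exons 8, 12 and 16, and no retained-intron model covers the long introns nearer the start. Relb had 1 such block, 966 bases between 12.0 and 13.0 kb from its start, which Relb-205, Relb-206 and Relb-208 share. Only 30.5% of the bases of Relb-206 and 32.5% of those of Relb-208 lie outside coding exons. The first table gave its counts to Relb-206, with 489, 396 and 706, and to Relb-208, with 216, 191 and 241, and listed Relb-205 at 0. The second table gave 928, 743 and 1096 counts to Relb-205, which was named after its values were seen, and 716, 922 and 1262 to Relb-208, with Relb-206 near 0. Which of these near-identical models carried the counts was therefore uncertain, while the class as a whole was alike in both tables. Other Relb transcripts with at least 5% of the gene's counts in a library were the coding Relb-202, with 138, 198 and 347 counts, and Relb-209, with 73.6, 42.8 and 77.8. Nfkb2 counts fell mainly on the coding transcripts Nfkb2-206, with 1115, 964 and 1683, and Nfkb2-202, with 635, 869 and 1240. Nfkb2-207, with 273, 246 and 361 counts, keeps introns of 121 and 80 bases, whose first bases are shown above. Rela-203, the retained-intron transcript of Rela, held 46.3, 25.8 and 57.8 counts, and only 35 of its 786 bases lie outside coding exons.

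Annotated genes overlap 2 of the 5. Gm43430, an unverified transcript model on the same strand inside Nfkb1 (chr3:135650670-135654566), was at 42.94, 20.51 and 39.19 TPM. It carried 1706, 1189 and 2130 expected counts, against 2855, 3341 and 3876 for Nfkb1 itself, so reads from within the span of Nfkb1 were counted outside it. AC114539.1, a long non-coding RNA on the opposite strand that shares 1292 bases with Nfkb2, was at 18.16, 15.12 and 25.52 TPM. Psd, on the opposite strand with 299 shared bases, was at 47.97, 25.85 and 51.35 TPM. Whether counting used strand is not given in the sources used here, so reads of these stretches may be shared with Nfkb2.

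All 5 subunit genes were lowest in replicate 2 in CPM (counts scaled to library size by TMM, with no length correction). Of 10850 protein-coding genes 33.3% had their lowest value there, against 41.2% in replicate 1 and 25.5% in replicate 3. Relative to the mean of the other libraries, Rel was at -1.23 in replicate 2 on the log2 scale, against 0.33 in replicate 1 and 0.90 in replicate 3. Of the protein-coding genes, 1.76% were lower than Rel in replicate 2 by this measure. Relb was at -0.75, Rela at -0.68 and Nfkb2 at -0.67, with 5.19%, 6.18% and 6.34% of protein-coding genes lower. Nfkb1 was at -0.35, with 14.9% lower. Rel thus varied most and Nfkb1 least. The biological coefficient of variation estimated by edgeR, a measure of spread between libraries beyond counting error, was 0.312 for Rel, above that of 94.6% of protein-coding genes. It was 0.224 for Relb, 0.221 for Nfkb2, 0.212 for Rela and 0.185 for Nfkb1, around the protein-coding median of 0.201. Replicate 2 was also the library with the lowest RNA input, 250 ng, and the part of input in these differences was not tested.

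**Figure D4:**
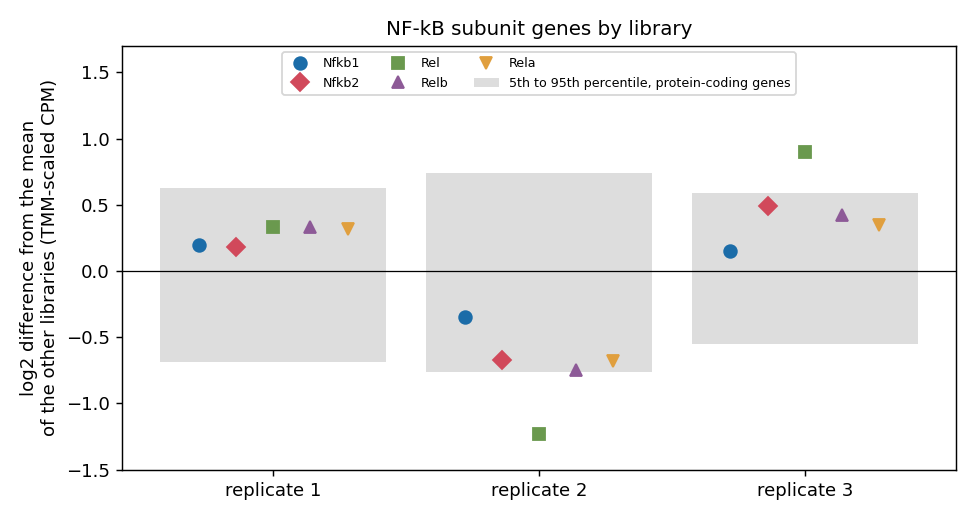
Log2 difference of TMM-scaled CPM in each library from the mean of the other libraries (vertical axis) for the 5 subunit genes (symbols), with grey bars from the 5th to the 95th percentile of 10850 protein-coding genes. In replicate 2 all 5 genes are below 0, and Rel, at -1.23, lies below the 5th percentile of -0.76.

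As the plot of differences by library shows, Rel was outside the 5th to 95th percentile range in replicates 2 and 3. The other 4 genes stayed within it in every library. The 5 genes are parts of 1 comparison of the same 3 libraries, so they are not independent views of replicate 2.

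The rest of the NF-kB pathway was described with 5 lists holding 67 distinct genes, of which 64 were called above 1 TPM by the limma test, against 61.8% of protein-coding genes and 51.1% of all genes tested. The median over the 67 genes was 46.3 TPM, against 4.17 TPM over protein-coding genes and 2.02 TPM over all genes tested. All 6 IkB genes, which encode the inhibitors and their nuclear relatives, were called, with a median of 78.0 TPM. Nfkbia, the gene of the inhibitor IkB-alpha, was at 358.62, 205.5 and 508.64 TPM, and Nfkbiz, that of the nuclear IkB-zeta, at 364.23, 129.89 and 465.12 TPM. Nfkbie, the gene of IkB-epsilon, was at 108.87, 35.51 and 130.03 TPM. These 3 were the highest of the family, and each was lowest in replicate 2. All 11 genes of the list named IKK complex and upstream kinases were called, with a median of 65.4 TPM. That list is wider than its name and also holds IKK-related kinases and adaptors. The highest were Ikbke, the gene of an IKK-related kinase, at 1150 ± 100.0 TPM, its relative Tbk1 at 176 ± 25.2 TPM and Map3k8, the gene of the kinase bound by p105, at 127 ± 22.1 TPM (SD, n = 3 each).

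All 14 genes of the list named precursor and IkB turnover were called, with a median of 21.4 TPM. Not every member of that list is known for this role. Its highest members were Cop1, the gene of a ubiquitin ligase, at 102 ± 13.1 TPM, the phosphatase subunit gene Ppp4c at 79.4 ± 3.30 TPM and Tnip2, whose protein binds p105, at 41.8 ± 4.62 TPM (SD, n = 3 each). All 13 coregulator genes were called, with a median of 29.6 TPM. Among them the corepressor gene Ncor1 was at 208 ± 9.06 TPM, the deacetylase gene Hdac1 at 118 ± 37.4 TPM and the acetyltransferase gene Ep300 at 75.7 ± 8.14 TPM (SD, n = 3 each). Of 24 NF-kB target genes 21 were called, against 61.8% of protein-coding genes tested, with a median of 142 TPM. The highest were Irf1, the gene of an interferon regulatory factor, at 805 ± 349 TPM, Sod2, that of a mitochondrial superoxide dismutase, at 733 ± 287 TPM, and the cytokine gene Tnf at 484 ± 177 TPM (SD, n = 3 each). The 3 not called were cytokine genes. Il6 was at 3.25, 0.61 and 4.55 TPM, Il12b at 0.56, 0.08 and 1.75 TPM, and Csf2 at 0, 0.12 and 0 TPM.

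**Figure D5:**
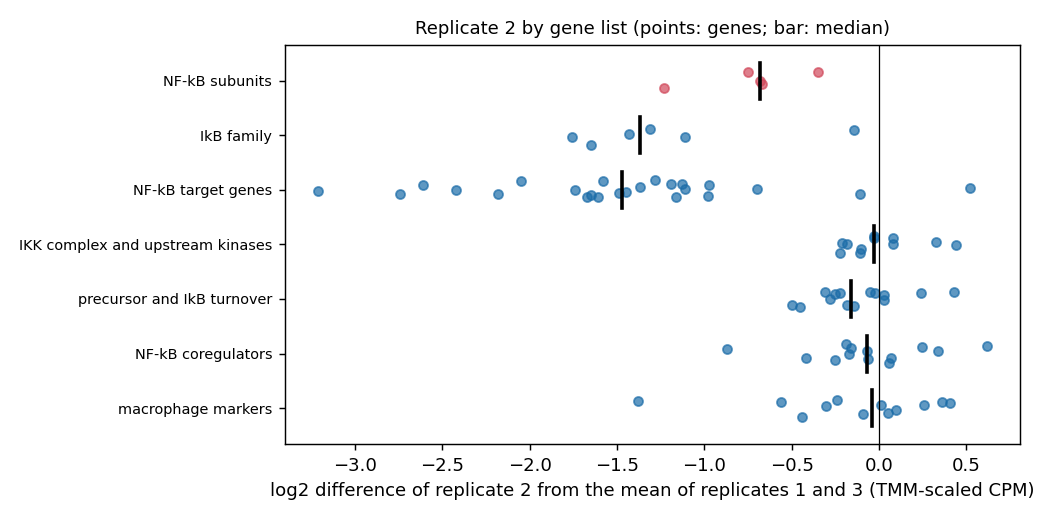
Log2 difference of replicate 2 from the mean of replicates 1 and 3 (horizontal axis, TMM-scaled CPM) for each gene (points, with random vertical offset) of the subunit list (red), the other NF-kB lists and the macrophage markers (blue), with the median of each list as a black bar. The medians are -0.68 for the subunits, -1.37 for the IkB family and -1.47 for the target genes, and between -0.16 and -0.03 for the other lists.

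The subunit genes stood between the other lists in replicate 2. Their median difference from the other libraries was -0.68 on the log2 scale, against -1.37 for the 6 IkB genes and -1.47 for the 24 target genes. It was -0.03 for the IKK complex and upstream kinases, -0.16 for precursor and IkB turnover, -0.07 for the coregulators and -0.04 for the 12 macrophage markers. All 6 IkB genes and 22 of 24 target genes had their lowest value in replicate 2, against 5 of 11, 6 of 14, 7 of 13 and 5 of 12 in the other lists. Among 10850 protein-coding genes the share with the lowest value there was 33.3%. Within the IkB family, Bcl3, the gene of a nuclear relative that binds p50 and p52, stood apart at -0.14, and it was named after its values were seen. Nfkbia is in both the IkB and the target list. The difference between lists was not tested, since 1 library carries it.

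The genes nearest to each member were taken as the 2 protein-coding genes with the smallest root mean square difference of log2(TPM + 0.1) over the 3 libraries, out of 15120 genes. Nfkb1 was nearest to Npepps, at 94.36, 78.65 and 94.14 TPM with a difference of 0.018, and to Ikbkb, the gene of the kinase IKK-beta, at 0.0614. Nfkb2 was nearest to Ppp1r18 at 0.0734 and Tpt1 at 0.104. Rel was nearest to Snx18 at 0.0945 and Csrnp1 at 0.148. Relb was nearest to Tma16 at 0.0804 and to Psd, the gene that overlaps Nfkb2, at 0.0965. Rela was nearest to Tiparp, at 34.86, 21.41 and 34.51 TPM with a difference of 0.0259, and to Mocs1 at 0.0539. With 3 libraries and this many genes, close matches are a description of level and say nothing of shared control.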

How the data were processed

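Total RNA-seq of the chromatin fraction was deposited for 3 libraries of 1 group, as 1 gene table and 2 transcript tables apiece. Expected counts and TPM of the authors fill the gene table and, per isoform, the first transcript table, per the file headers. The gene table also holds posterior mean TPM with interval bounds (a signal that is never negative), and the first transcript table the percent of a gene per isoform, both as deposited. Per the file headers, estimated counts with their TPM make up the second transcript table. The deposited text beside each sample names mm10 and annotation release M21. The sources used here do not name the aligner, tool versions or strand setting. No library was pooled, per the labels, and nothing says that the biosamples came from separate mice, so p-values measure the spread between these samples.

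Of 55536 gene identifiers, all were named from release M21, and 55450 of them were also found with the same symbol in the second transcript table. Rows that name no gene held 1.045%, 0.425% and 0.401% of expected counts, nearly all phiX, and were left out. Chi-square per degree of freedom between libraries was 40.1 to 75.9, so none was deposited more than once. Levels were tested with limma 3.58.1 on log2(TPM + 0.1), which understates differences of low genes. Expected counts were rounded for edgeR 4.0.16 (TMM, filterByExpr, 14140 genes kept) to estimate the spread. Tests were checked on simulated data of 22259 genes, where 0%, 84% and 100% of 50 genes at 1, 2 and 4 TPM were called at a coefficient of variation of 0.3. DESeq2 1.42.0 size factors were an alternative, as were other pseudocounts, floors, filters, tables and each library left out. Precision is limited by counting error, which the deposited intervals cover, and by 3 libraries. R 4.3.3, python 3.11.15, numpy 2.4.6, pandas 2.3.3 and matplotlib 3.10.9 were used.

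The members and all gene lists were chosen with earlier results of these data known. Named were all members, their transcripts with at least 5% of the gene's expected counts in a library, the 2 nearest protein-coding genes of each, the 3 highest and every uncalled gene of each pathway list, and overlapping genes.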

Additional observations from a re-analysis of the deposited data

How the results depend on the processing

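No paired analysis was possible because the labels give 1 group. The calls of the 5 subunit genes above the floor were the same under all 9 alternatives, also at a floor of 5 TPM, and the count of other pathway genes called was 56 to 65, against 64. Over all genes, 12367 of 24180 (51.1%) were called in the gene table and 19775 of 34376 (57.5%) in the second transcript table. At a floor of 5 TPM 7051 of 24180 (29.2%) were called. That floor gave the count of 56 pathway genes, against 39.0% of protein-coding genes called. The count of 65 came with TPM over protein-coding genes only, where 72.4% of them were called. The place of the subunit genes by library kept its sign under DESeq2 size factors, without a filter and with protein-coding genes only. Of 60 pair values under alternatives 53 kept their direction. Direction alone was counted: in the second transcript table Nfkb1 minus Rela was 0.12, against 1.58, and Nfkb2 minus Rela 0.27, against 1.06. In the second transcript table the log2 differences turned to -0.15 for Nfkb1 minus Nfkb2, -0.59 for Rel minus Relb, -1.04 for Rel minus Rela and -0.45 for Relb minus Rela. In CPM without length correction they turned to -0.35 for Nfkb1 minus Rel and -0.77 for Nfkb2 minus Rel, since Rel has the longest transcript. Leaving out 1 library gave -0.05 to 0.26 for Rel minus Relb, the lowest without replicate 3. The retained-intron share moved to 76.0% for Nfkb1, 18.7% for Nfkb2, 73.1% for Relb and 17.1% for Rela in the second table. As a share of TPM it was 13.4% for Nfkb2, 45.5% for Relb and 19.2% for Rela. The cause of the difference between tables was not tested.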
